A study of Mus musculus with 12 samples.

Results

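The cytosolic ribosomal protein genes were taken by symbol from the gene expression table of a mouse leukaemia study. They are the genes whose symbol begins with Rpl or Rps followed by a digit, with Rplp0, Rplp1, Rplp2 and Rpsa added. Kinases of Rps6, Rps19bp1 and symbols marked as pseudogenes were left out. This gave 87 of 24310 genes, 34 of the small ribosomal subunit and 53 of the large subunit. RNA had been sequenced from CMM cells, a GFP-marked mouse acute myeloid leukaemia that grows after transfer into C57BL/6 mice. Treatment began once GFP positive cells made up about 1% of the blood, and consisted of 3 intravenous injections, 1 every other day. The mice were given PBS, the oligonucleotide CpG-scrODN or the oligonucleotide CpG-STAT3dODN. CpG oligonucleotides are ligands of the receptor TLR9, the STAT3 part is a decoy that carries a DNA sequence bound by STAT3, and the scrambled part is its control. Cells were enriched for c-Kit from spleens harvested 1 day after treatment ended, so all 3 groups are leukaemia-bearing mice of 1 strain and 1 leukaemia. The design text adds a GFP sort that the extraction protocol does not list. No source used here gives the age of the mice.

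Each group had 4 libraries, and a library is called below by the group on its label and its replicate number (PBS 1 to PBS 4, and so on). In every library the group word in the file header disagreed with the label. The header read DEC where the label was PBS, it read PBS where the label was CpG-scrODN, and it read SCR where the label was CpG-STAT3dODN. The groups below are those of the labels, and whether a treatment raised or lowered a gene cannot be told from them. The labels do not say that 1 library is 1 mouse, so p-values measure the spread between these libraries, which may be technical.

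A ribosome is built from rRNAs and a fixed set of proteins, most of them present in a single copy, so cells make the proteins of both subunits in matched amounts. Their mRNAs are among the most abundant of growing cells. Most begin with a cytosine followed by a run of pyrimidines, the 5′ terminal oligopyrimidine tract, through which mTOR signalling and the RNA-binding protein Larp1 set how strongly they are translated. Much of that control acts on translation, which RNA levels do not show. Several of the proteins are also known outside the ribosome. Rpl5 and Rpl11 bind Mdm2 when ribosome assembly fails and so stabilise p53, and loss of a copy of genes such as RPS19 causes Diamond-Blackfan anaemia in humans, a failure of erythroid progenitors.

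The annotated starts of these genes were searched for this tract. Promoter sequences from RefSeq (GRCm38.p6) matched 63 of the 84 members that passed the expression filter described below. In 22 of the 63 (34.9%) a C within 2 bases of the annotated first base was followed by at least 4 pyrimidines, against 12.3% of 8317 tested genes and 10.6% of 27025 RefSeq promoters. The lines below give 30 bases on the gene's own strand, 10 before the start and 20 from it, with that pyrimidine run in capitals. They show the substrate of S6 kinase (Rps6), members whose groups did not overlap in the comparisons below (Rpl14, Rpl28, Rps21), the highest small subunit gene (Rps18), a Diamond-Blackfan gene (Rpl35a), a near-identical pair (Rps27 and Rps27rt), and 2 genes with long runs that were picked after the sequences were seen (Rpl15 and Rpl27a).
Rps6, chr4:86857348-86857377, minus strand: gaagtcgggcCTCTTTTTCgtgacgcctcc
Rpl14, chr9:120571507-120571536, plus strand: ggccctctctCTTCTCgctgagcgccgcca
Rpl28, chr7:4792955-4792984, plus strand: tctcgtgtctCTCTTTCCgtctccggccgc
Rps21, chr2:180257369-180257398, plus strand: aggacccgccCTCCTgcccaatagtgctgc
Rps18, chr17:33955646-33955675, minus strand: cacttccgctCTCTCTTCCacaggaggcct
Rpl35a, chr16:33056472-33056501, plus strand: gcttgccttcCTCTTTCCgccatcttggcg
Rps27, chr3:90213629-90213658, minus strand: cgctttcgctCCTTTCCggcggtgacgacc
Rps27rt, chr9:114982720-114982749, minus strand: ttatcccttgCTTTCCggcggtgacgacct
Rpl15, chr14:18270967-18270996, minus strand: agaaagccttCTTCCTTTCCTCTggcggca
Rpl27a, chr7:109519185-109519214, plus strand: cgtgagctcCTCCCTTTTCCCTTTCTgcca

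The runs printed reach 13 bases in Rpl15 and 17 in Rpl27a. Mitochondrial ribosomal proteins, whose mRNAs are not known for this element, had it in 8 of 68 promoters (11.8%). CTCTTT on the gene's own strand within 50 bases of the start was looked for after the windows had been seen, and it can lie inside the pyrimidine run. It was present in 30.2% of the members' promoters and 4.04% of the tested genes' promoters. Over the full 300-base promoters, CCGGAAG on either strand, the core bound by ETS factors, was in 39.7% of the members, 22.0% of tested genes and 36.8% of mitochondrial ribosomal protein genes. CACGTG, which reads the same on both strands and is the core bound by Myc and related factors, was in 9.52% of the members and 12.1% of tested genes. TATAAA on either strand was in 11.1% of the members and 8.09% of tested genes. These are matches of letters only.

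Values were RPKM, the reads of a gene divided by its length and by the mapped reads of the library, in the authors' own calculation. The depth estimated from the smallest steps of these values was 31440000 to 36200000 reads per library. No 2 libraries held identical values, and the correlation of libraries within a group ran from 0.928 to 0.997. Both PBS 4 and CpG-STAT3dODN 4 were unlike their groups in the immediate-early gene Fos, which was at 12.9 and 5.91 RPKM in them and at 486 to 1156 RPKM in the other 10 libraries. Markers of other spleen cells differed between the groups. The summed RPKM of 10 B cell markers ran from 176 to 689 in PBS, from 9.79 to 26.7 in CpG-scrODN and from 24.1 to 111 in CpG-STAT3dODN, and none of the 10 was below 0.1 RPKM in all libraries. The summed RPKM of 7 T cell markers was 16.0 to 55.5 in PBS and 2.30 to 5.41 in the other 8 libraries. Only 3 of the 7 (Cd2, Cd3g, Lck) passed the expression filter, and all 3 were called lower than in PBS in both other groups. The summed RPKM of 4 plasma cell markers was 101 to 153 in PBS, 41.3 to 64.5 in CpG-scrODN and 70.2 to 87.9 in CpG-STAT3dODN. Among these 4, Jchain and Mzb1 were called lower in CpG-scrODN than in PBS. In CpG-STAT3dODN against PBS only Mzb1 was called lower, and 1 of the 4 had a difference above 0. The summed RPKM of 6 progenitor genes of this leukaemia (Kit, Cd34, Mpo, Prtn3, Elane, Ctsg) was 318 to 433 in PBS, 119 to 171 in CpG-scrODN and 182 to 343 in CpG-STAT3dODN. The 6 genes did not move together. In CpG-scrODN against PBS, Mpo, Prtn3, Elane and Ctsg were lower (limma adjusted p under 0.05). Kit and Cd34 were higher there, at an unadjusted limma p under 0.05 only. In bulk RNA, fewer cells of a type and less RNA per cell cannot be told apart.

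Ribosomal protein mRNAs were among the most abundant in every group. Of the 20 genes with the highest mean RPKM 14 were members, of the highest 50 genes 37, and of the highest 100 genes 59. A mean of at least 1000 RPKM was reached by 32 members and at least 500 by 60. Another 18 lay between 100 and 500 RPKM, and 6 tested members were below 100. The median of the members' mean RPKM was 999.9 over the 34 small subunit genes and 773 over the 50 tested large subunit genes. The highest level was that of Rpl41, the smallest ribosomal protein, with 2405, 2695, 2509 and 2611 RPKM in PBS 1 to 4, 2569, 2675, 2581 and 1978 in CpG-scrODN 1 to 4, and 2627, 2384, 2624 and 3177 in CpG-STAT3dODN 1 to 4. Rplp1, an acidic protein of the ribosomal stalk, followed with 2179 to 3030 RPKM over the 12 libraries, and Rps18, which sits at the head of the small subunit, with 2071 to 2648 RPKM. Neither Rpl41 nor Rplp1 nor Rps18 separated any 2 groups.

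**Figure D1:**
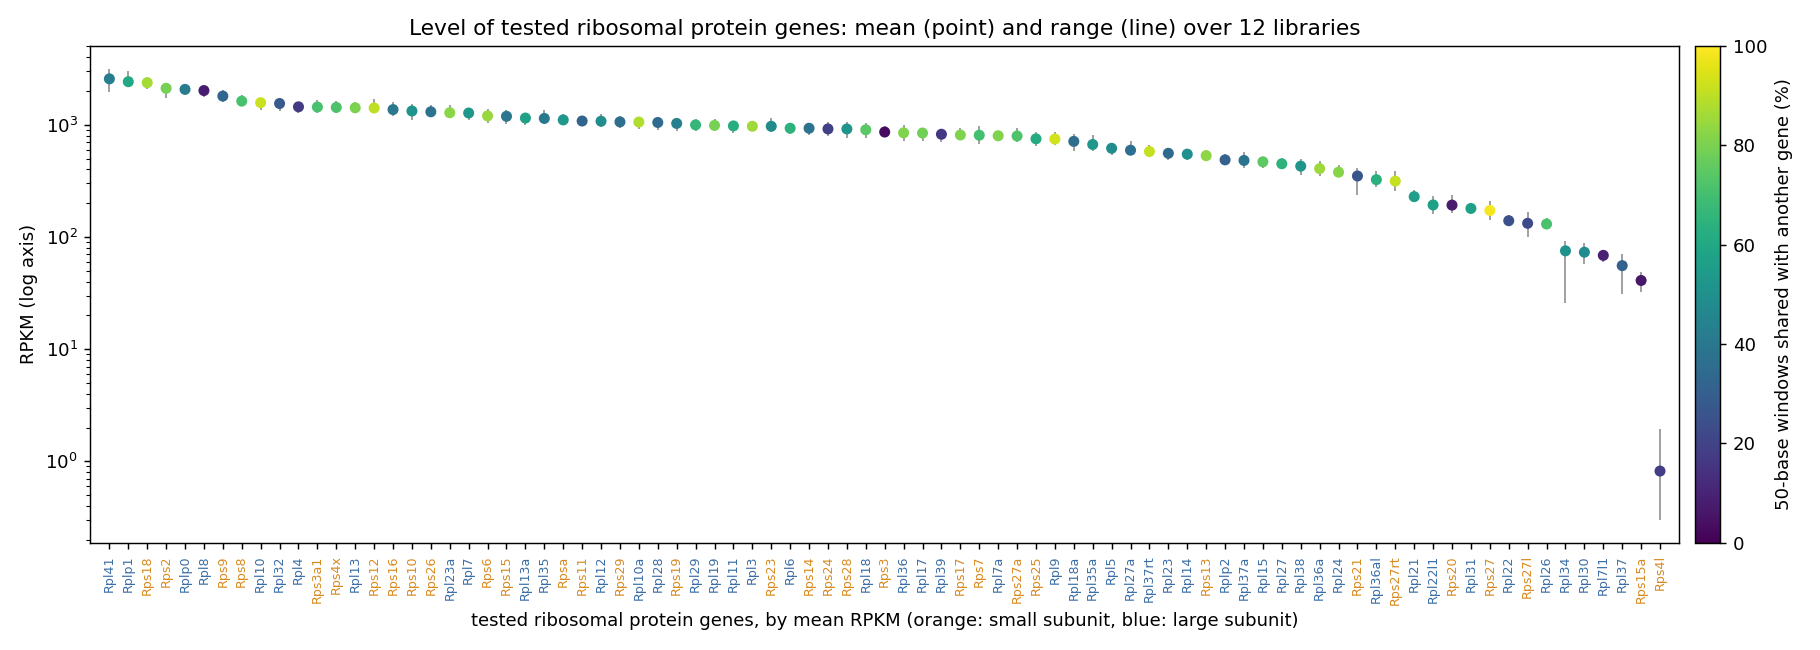
Mean RPKM over 12 libraries (points, log axis) and the range from lowest to highest library (lines) of 83 of the 84 tested ribosomal protein genes, in order of the mean, coloured by the share of the gene's 50-base windows that also occur in another gene's transcripts. Rpl41 is the highest, most lines are short, and Rpl34, Rpl37 and Rps4l have the longest lines.

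This order has to be read, at all levels, with the copies of these genes in the genome. Reads from a gene and a near-identical copy can be assigned to either, and no source used here says how the authors' counting treated them. In the GENCODE transcripts, the share of a member's 50-base windows found in another gene reached 98.6% (Rps27). More than 50% was shared in 16 of the 32 members at 1000 RPKM or more, in 18 of 28 from 500 to 1000 RPKM, in 8 of 11 from 200 to 500 RPKM and in 5 of 13 below 200 RPKM. Rps15a was listed at 32.5 to 48.8 RPKM. The GENCODE transcript searched here for its windows, of 5130 bases, is far longer than its coding sequence needs, so its share of 6.04% depends on that model. The gene length behind the authors' RPKM was not given in the sources used here. Rpl10l, Rpl3l and Rpl39l, paralogs of Rpl10, Rpl3 and Rpl39 known from testis or muscle, did not pass the filter. Rpl10l was listed at 0 in all 12 libraries, Rpl3l at no more than 0.0904 RPKM and Rpl39l at no more than 0.472 RPKM.

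The 87 genes held 18.3%, 19.4%, 21.6% and 19.7% of the summed RPKM in PBS 1 to 4. They held 21.3%, 20.9%, 21.1% and 20.4% in CpG-scrODN 1 to 4, and 20.8%, 21.5%, 20.1% and 22.3% in CpG-STAT3dODN 1 to 4. The groups overlapped: PBS 3 had the second highest share of all 12 libraries, and PBS 1 the lowest. Group means were 19.8% ± 1.37 (SD, n = 4), 20.9% ± 0.385 (SD, n = 4) and 21.2% ± 0.925 (SD, n = 4). The 2 subunits differed little in their ratio. The summed RPKM of the small subunit divided by that of the large subunit was 0.816 ± 0.0112 (SD, n = 4) in PBS, 0.819 ± 0.00899 in CpG-scrODN and 0.816 ± 0.00931 in CpG-STAT3dODN, with a range of 0.806 to 0.832 over all libraries. On the log2(RPKM + 1) scale the mean of the small subunit exceeded that of the large subunit by 0.18 ± 0.029, 0.16 ± 0.039 and 0.16 ± 0.029 (SD, n = 4) in the same order, and the 3 ranges overlapped.

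**Figure D2:**
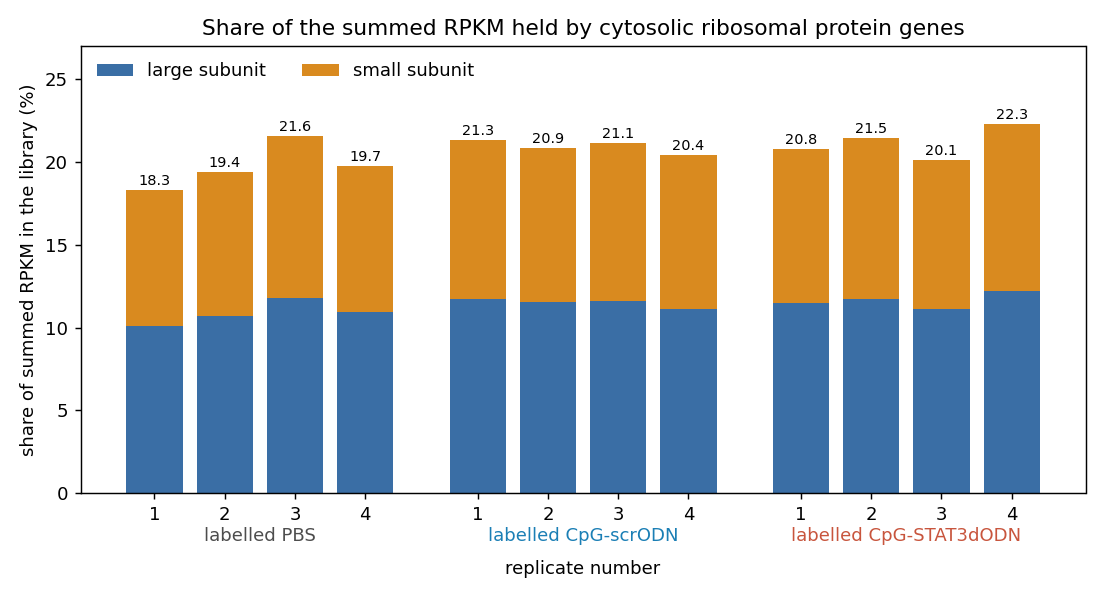
Share of each library's summed RPKM (percent, from 0) held by large subunit genes (blue) and small subunit genes (orange), with the total above each bar and replicates 1 to 4 of each labelled group side by side. Totals run from 18.3% in PBS 1 to 22.3% in CpG-STAT3dODN 4, and the groups overlap.

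Member by member, the levels had a smaller spread within groups than those of other genes above 100 RPKM. The SD of log2(RPKM + 1) within groups had a median of 0.097 over the 84 tested members and 0.18 over the 460 other genes with a mean of at least 100 RPKM. The other genes were not matched to the members' level, which had a median of 883 RPKM. They were also not cleared of immediate-early genes or of markers of other cells. The highest library exceeded the lowest by a median of 1.3-fold, by less than 1.5-fold in 75 members and by more than 2-fold in 3. The 3 were Rps4l, Rpl34 and Rpl37. The steadiest were Rpl3, at the peptidyl transferase centre, with a within-group SD of 0.058 and 906 to 1026 RPKM over the 12 libraries, and Rpl14, with 0.058. By the within-group SD, Rpl34 (0.47), Rpl37 (0.30), Rps27l (0.26), Rps4l (0.24), Rps21 (0.20), Rps15a (0.20) and Rpl30 (0.20) varied most. Rpl30, which in yeast binds its own transcript, ran from 58.0 to 86.7 RPKM in PBS and from 62.2 to 89.0 in CpG-STAT3dODN, and the lowest of the 4 CpG-scrODN libraries was at 61.2 and their highest below the highest of both other groups, so that the 3 groups overlapped. The members moved together from library to library. CpG-STAT3dODN 4 was the highest of the 12 libraries in 74 of the 84 members, with a median of 0.18 (log2) above the other 3 libraries of its group. PBS 1 was the lowest library in 42 members and lay a median of 0.14 below the rest of its group, and PBS 3 lay 0.14 above. CpG-scrODN 4 was lowest in 22 members and lay a median of 0.10 below its group.

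Other values moved with these libraries. The summed RPKM of all genes was the highest of all libraries in CpG-STAT3dODN 4 (389400) and the lowest in CpG-scrODN 4 (350027). Part of the members' shift in these libraries may therefore be one of the library's whole scale. In PBS 3, where the members lay above their group, the sum was the lowest of that group (363421), and in PBS 1 it was 373569. PBS 1 had the highest summed RPKM of 7 erythroid markers, 9464, against 255 to 4056 in the other 11 libraries. CpG-STAT3dODN 4, with the highest ribosomal protein levels, had the lowest Fos, but PBS 4, with the next lowest Fos, was not raised (0.014 below its group). In CpG-scrODN 4 the members' deviation from their group differed with GC content, with a median of -0.03 in the third with the lowest GC and -0.16 in the third with the highest GC (28 members each). The correlation of this deviation with GC over the 84 members was -0.16 there. It was no weaker in CpG-scrODN 1 (0.20), CpG-STAT3dODN 2 (0.18) and CpG-STAT3dODN 4 (-0.17). The part of these differences in the results was not tested. The results below are therefore also given without the libraries concerned.

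**Figure D3:**
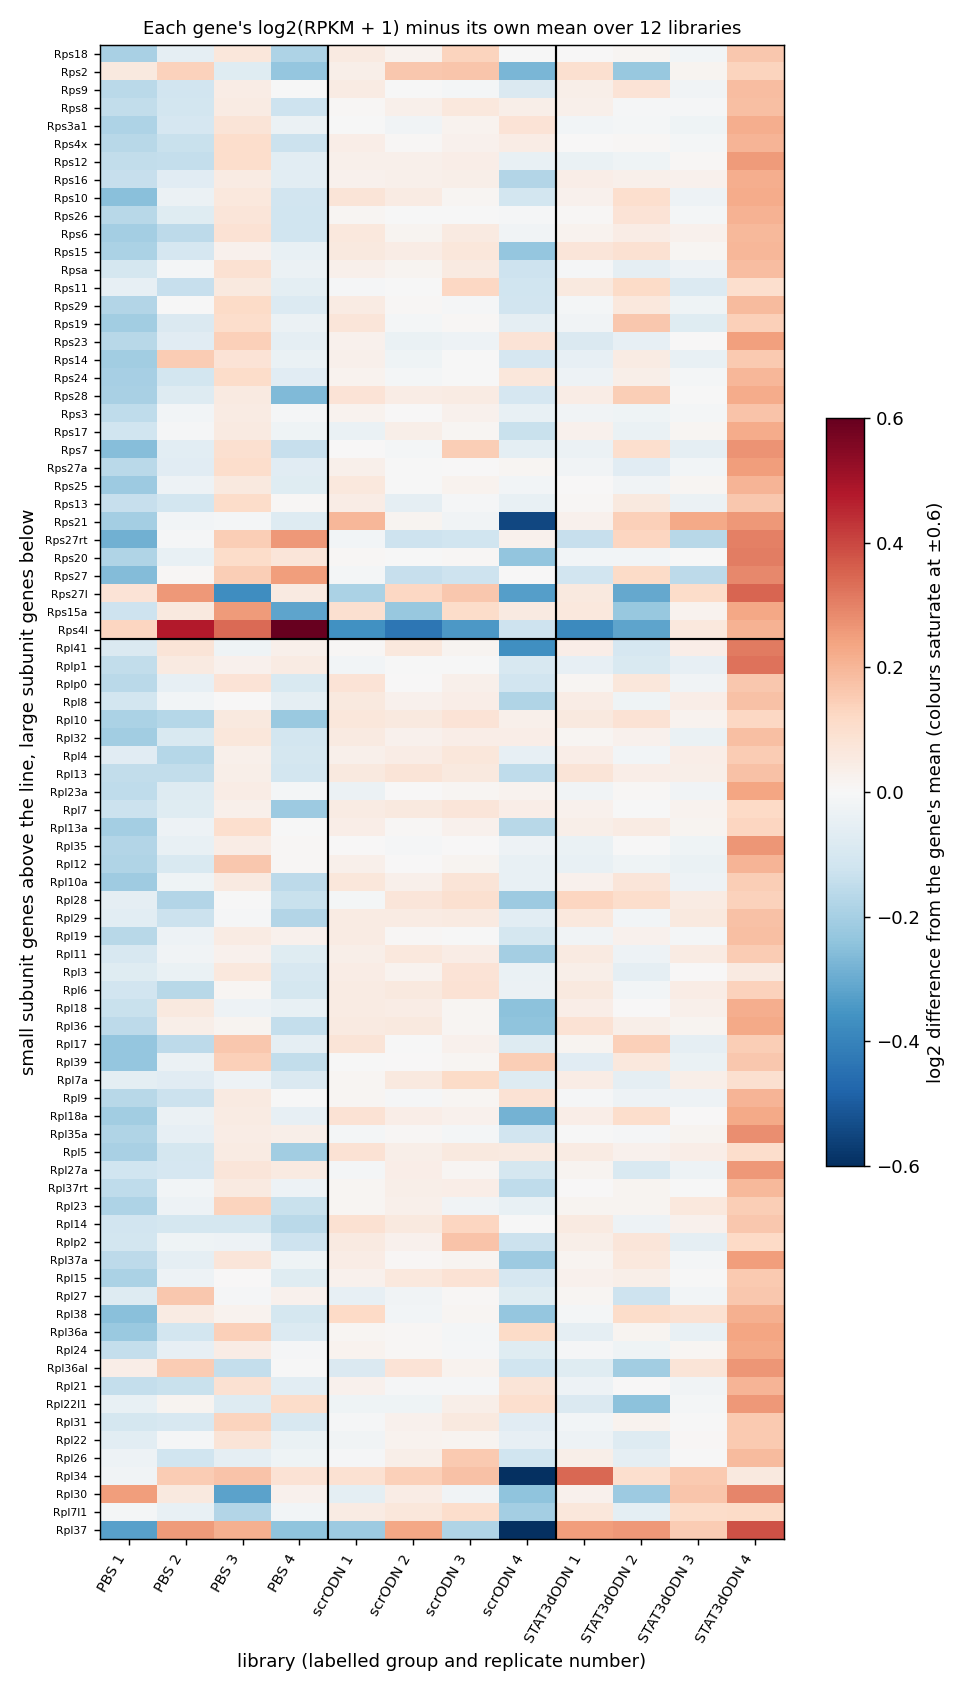
Log2(RPKM + 1) of 83 of the 84 tested genes, each minus its own mean over the 12 libraries (red above, blue below, colours saturating at 0.6), with small subunit genes above the horizontal line, large subunit genes below it, and libraries in columns by labelled group. The column of CpG-STAT3dODN 4 is red in nearly all rows and that of PBS 1 mostly blue, while single cells stand out for Rpl34, Rpl37 and Rps21 in CpG-scrODN 4.

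Between the libraries labelled CpG-scrODN and PBS, 1 of the 84 tested members was called, Rps4l, which was lower in CpG-scrODN. Its level was close to the filter of 1 RPKM, and the call is weak for the reasons given below. Rps4l (chr6:148354656-148355596) is an intronless relative of the X-linked Rps4x, and GENCODE classes it as a transcribed processed pseudogene. It was listed at 0.92, 1.45, 1.22 and 1.95 RPKM in PBS 1 to 4, at 0.365, 0.299, 0.384 and 0.613 in CpG-scrODN, and at 0.347, 0.409, 0.838 and 1.03 in CpG-STAT3dODN. All 4 PBS libraries lay above all 4 CpG-scrODN libraries. The difference was -0.74 on the log2(RPKM + 1) scale (SE 0.168, 95% interval -1.11 to -0.37, limma adjusted p = 0.0274), a scale that understates the change of a gene this low.

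The call on Rps4l is a weak one. The gene passed the filter of 1 RPKM in at least 4 libraries only through PBS 2, 3 and 4 and CpG-STAT3dODN 4, so it could enter the test only with libraries of unequal level. The call was lost when PBS 2, PBS 4, CpG-scrODN 1, CpG-scrODN 2 or CpG-scrODN 3 was left out, with differences of -0.63 to -0.73. Summed B cell markers, like Rps4l, were higher in every PBS library than in every CpG-scrODN library, but within the groups the order differed. PBS 4 was the highest library in both (689 RPKM of B cell markers), whereas PBS 2, with the lowest B cell sum of its group (176 RPKM), had the second highest Rps4l level. CpG-scrODN 4 had the lowest B cell sum of the 12 libraries (9.79 RPKM) and the highest Rps4l level of its group. Of the 9 tested B cell markers 9 were called lower in CpG-scrODN than in PBS, and the part of B cells in the Rps4l difference was not tested. Rps4x itself, the parent gene, had 1269, 1302, 1535 and 1305 RPKM in PBS, 1468, 1434, 1453 and 1473 in CpG-scrODN and 1426, 1433, 1415 and 1643 in CpG-STAT3dODN, and was not called (0.11, adjusted p = 0.507 by limma).

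Over all genes tested in this comparison, 452 of 10886 (4.15%) were called, 12 higher (0.11%) and 440 lower (4.04%) in CpG-scrODN. With 1 of 84 members called, the share among them was below this background. At an unadjusted limma p under 0.05, 4 members were higher (Rpl5, Rpl7, Rpl10, Rpl14) and 1 lower (Rps4l), where the background was 4.75% higher and 10.9% lower. The groups did not overlap in 2 members that were higher (Rpl7, Rpl14) and in Rps4l, against 3.83% of all genes higher and 10% lower. The median difference was 0.05 over both the 34 small subunit and the 50 large subunit members, -0.05 over all genes tested and 0.02 over the 460 other abundant genes. A difference above 0 was seen in 26 of 34 small subunit and 43 of 50 large subunit members, and in 40.1% of all genes. The 84 differences ran from -0.74 (Rps4l) to 0.19 (Rpl10), and 81 of the 84 intervals lay within 0.5 of 0. Leaving out PBS 1, in which most members were below their group, brought both subunit medians to 0.01. With any 1 of the 12 libraries left out, they ran from 0.01 to 0.09 (small) and from 0.01 to 0.08 (large).

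Rpl14, a large subunit protein at the subunit's surface, came closest to a rise. It was at 505, 507, 508 and 488 RPKM in PBS, 581, 569, 597 and 545 in CpG-scrODN and 568, 535, 557 and 611 in CpG-STAT3dODN. The PBS libraries lay below all 8 others. The difference from PBS was 0.19 (SE 0.060, adjusted p = 0.127) for CpG-scrODN and 0.17 (SE 0.060, adjusted p = 0.27) for CpG-STAT3dODN by limma. Rescaling the libraries to a common sum or by size factors gave CpG-scrODN an adjusted p of 0.0272 to 0.0432 for this gene. Rpl14 (chr9:120571517-120574653) shares 49.3% of its 50-base windows with the pseudogene Rpl14-ps1, which was listed at 1415 to 1597 RPKM in PBS, 1721 to 1806 in CpG-scrODN and 1644 to 1812 in CpG-STAT3dODN.

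Rpl10, a late-joining protein needed before the subunits can meet, was at 1378, 1394, 1636 and 1347 RPKM in PBS, 1645, 1634, 1662 and 1603 in CpG-scrODN and 1637, 1666, 1595 and 1715 in CpG-STAT3dODN. PBS 3 lay with the other groups and the remaining PBS libraries below them. The difference between CpG-scrODN and PBS was 0.19 (SE 0.067, limma adjusted p = 0.179), and 0.25 without PBS 3 (adjusted p = 0.0207). Rpl7, on chromosome 1, was at 1162, 1210, 1302 and 1094 RPKM in PBS and at 1309 to 1337 in CpG-scrODN, groups that did not overlap (0.15, SE 0.063, adjusted p = 0.261).

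Between the libraries labelled CpG-STAT3dODN and PBS no ribosomal protein gene was called, beside 202 of all genes (1.86%), 3 higher (0.0276%) and 199 lower (1.83%). This comparison shares its PBS libraries with the previous one. At an unadjusted limma p under 0.05 there were 10 members higher (Rps6, Rps28, Rpl5, Rpl6, Rpl7, Rpl10, Rpl13, Rpl14, Rpl28, Rpl29) and 1 lower (Rps4l), with a background of 9.4% of all genes, 2.7% higher and 6.7% lower. Groups did not overlap in Rpl14, Rpl28 and Rps21, all higher, beside 5.04% of all genes, 0.818% higher and 4.23% lower. The median difference was 0.10 over the small subunit and 0.11 over the large subunit, -0.01 over all genes and 0.01 over the other abundant genes. Differences above 0 were seen in 80 of the 84 members and in 46.3% of all genes.

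These medians leaned on single libraries. Without CpG-STAT3dODN 4 they were 0.04 (small) and 0.06 (large), and without both PBS 1 and CpG-STAT3dODN 4 they were 0.01 and 0.04. Most members were above their group in CpG-STAT3dODN 4 and below it in PBS 1, so these omissions favour lower medians. With any 1 of the 12 libraries left out, the medians ran from 0.04 to 0.15 (small) and from 0.06 to 0.14 (large). The differences of single members ran from -0.53 (Rps4l) to 0.29 (Rpl37). In 80 of 84 members the interval lay within 0.5 of 0 on the log2 scale, and in all 84 within 1.

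Rpl28 was named for its groups after its values were seen. It was at 1008, 927, 1045 and 953 RPKM in PBS, 1038, 1102, 1119 and 898 in CpG-scrODN and 1143, 1126, 1084 and 1151 in CpG-STAT3dODN, where all 4 libraries lay above PBS (0.20, SE 0.076, limma adjusted p = 0.37). Rps28, a small subunit protein near the mRNA exit, was at 798, 866, 951 and 762 RPKM in PBS, 968, 944, 945 and 854 in CpG-scrODN and 943, 1015, 912 and 1067 in CpG-STAT3dODN. Its groups overlapped through PBS 3, and the difference from PBS was 0.22 (SE 0.083, adjusted p = 0.333). Rps21, on chromosome 2, was at 300.4, 343, 344 and 329 RPKM in PBS, 398, 351, 341 and 237 in CpG-scrODN and 353, 382, 406 and 415 in CpG-STAT3dODN. CpG-scrODN 4 was the lowest library, and CpG-STAT3dODN exceeded PBS by 0.24 (SE 0.134, adjusted p = 0.719).

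Between CpG-STAT3dODN and CpG-scrODN no gene of any kind was called by limma (0% of 10886), and 295 genes (2.71%) had an unadjusted p under 0.05. A single member, Rpl37, was among these 295, in which 2.14% of all genes were higher and 0.57% lower. In no member were the groups apart, beside 4.25% of all genes, 3.38% higher and 0.873% lower. The median difference was 0.05 for both subunits and 0.03 over all genes, and without CpG-STAT3dODN 4 it was 0.01 for the small subunit and -0.0025 for the large. With any 1 of the 12 libraries left out, it ran from 0.01 to 0.09 (small) and from -0.0025 to 0.07 (large). The 84 differences ran from -0.04 (Rpl22l1) to 0.50 (Rpl37), and the intervals lay within 0.5 of 0 in 80 of 84 members and within 1 in 83.

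Rpl37 (chr15:5116613-5119140), a zinc-binding protein of the large subunit, was at 43.0, 64.8, 63.0 and 45.6 RPKM in PBS, 46.5, 63.7, 47.7 and 31.2 in CpG-scrODN and 64.6, 65.1, 60.3 and 71.0 in CpG-STAT3dODN. The CpG-STAT3dODN libraries were close together and the other groups spread, with CpG-scrODN 2 inside the CpG-STAT3dODN range. The difference from CpG-scrODN was 0.50 (SE 0.194, 95% interval 0.07 to 0.92, unadjusted p = 0.0252, limma adjusted p = 0.96). Its copy Rpl37rt, also a member, was at 520 to 600 RPKM in PBS, 519 to 593 in CpG-scrODN and 576 to 661 in CpG-STAT3dODN.

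**Figure D4:**
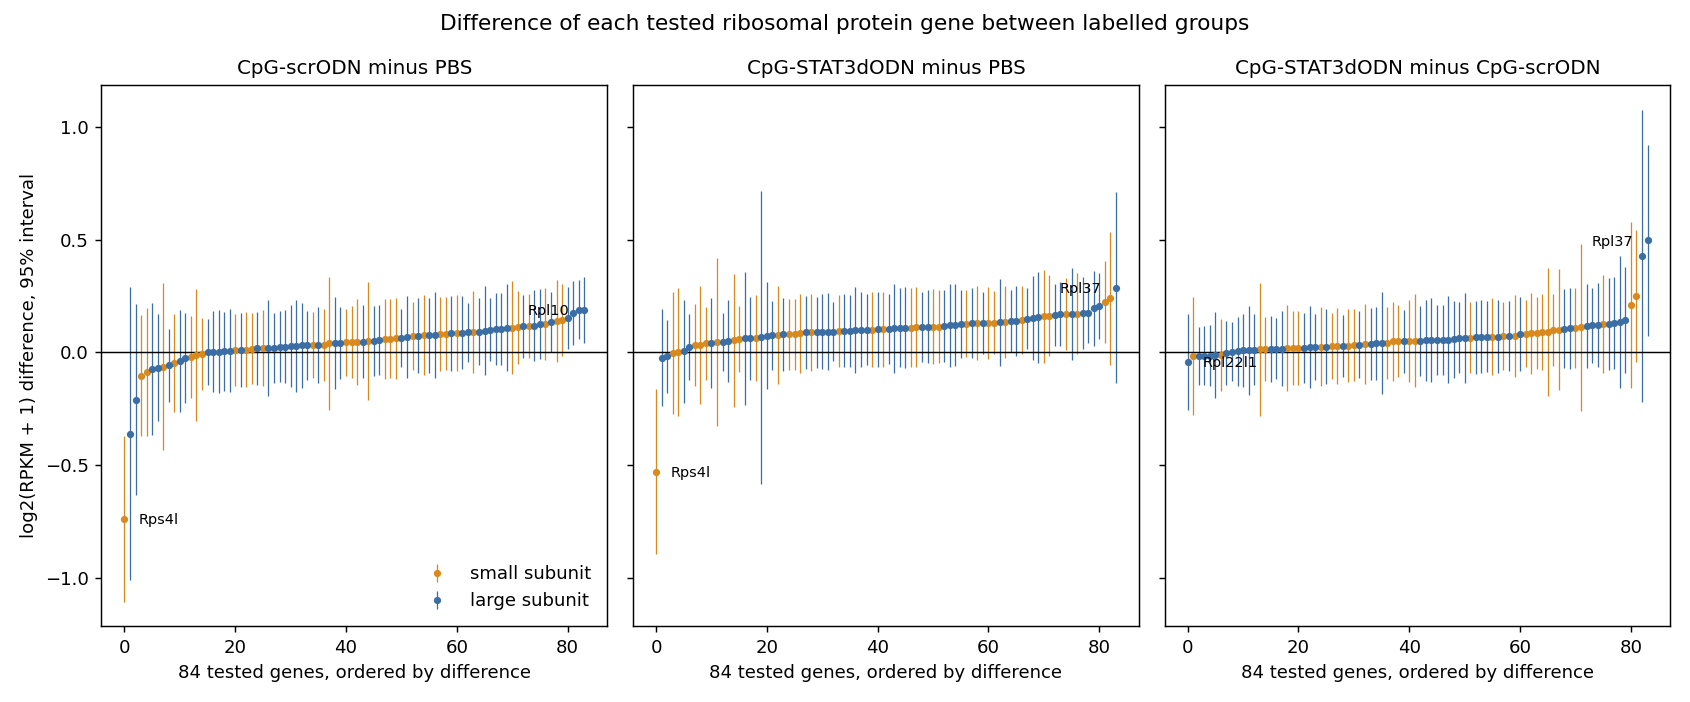
Difference in log2(RPKM + 1) between labelled groups with its 95% interval for each of the 84 tested ribosomal protein genes, ordered within each comparison, small subunit in orange and large subunit in blue. Most points lie close to 0, and Rps4l is the gene furthest below 0 in both comparisons with PBS.

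Grouped by role, no class other than the Rps4 pair held a called gene. The stalk proteins recruit the translation factors to the ribosome. Rplp0 was at 1992 ± 143, 2069 ± 116 and 2150 ± 121 RPKM (SD, n = 4) in PBS, CpG-scrODN and CpG-STAT3dODN, and Rplp2 at 462 ± 16.5, 498 ± 42.3 and 501 ± 25.6 RPKM. Rplp1 was at 2411 ± 156, 2369 ± 71.7 and 2493 ± 359 RPKM, and its CpG-STAT3dODN mean was set by replicate 4 (3030 RPKM, the others 2269 to 2338). None of the stalk genes was called in any comparison.

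The pair that links the ribosome to p53 was not called either. Rpl5, which carries the 5S rRNA with Rpl11, was at 539, 572, 638 and 534 RPKM in PBS, 655, 632, 641 and 641 in CpG-scrODN and 637, 628, 633 and 664 in CpG-STAT3dODN. PBS 3 overlapped the other groups, and the differences from PBS were 0.17 in both comparisons (SE 0.065, limma adjusted p = 0.209 and 0.363). Without PBS 3 the difference between CpG-scrODN and PBS was 0.23 (adjusted p = 0.0442). Rpl11 was at 949 ± 36.1, 969 ± 81.5 and 1015 ± 53.6 RPKM (SD, n = 4), with differences from PBS of 0.03 and 0.10.

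Genes mutated in Diamond-Blackfan anaemia or lost in a form of myelodysplasia were not called in any comparison. Rps19 was at 990 ± 89.6, 1030.3 ± 38.3 and 1068 ± 86.9 RPKM, Rps26 at 1243 ± 90.1, 1304 ± 8.02 and 1372 ± 97.1 RPKM, Rps14 at 931 ± 99.5, 916 ± 35.2 and 949 ± 65.0 RPKM and Rpl35a at 650.1 ± 45.4, 651 ± 24.3 and 702 ± 71.1 RPKM (SD, n = 4) in PBS, CpG-scrODN and CpG-STAT3dODN. In Rpl35a the CpG-STAT3dODN libraries were at 664, 662, 675 and 809 RPKM, with replicate 4 apart. The largest difference from PBS among the 4 genes was 0.14 (SE 0.069), that of Rps26 in CpG-STAT3dODN.

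Members with known work outside the ribosome were not called. Rps6, the substrate of S6 kinase, was at 1039, 1075, 1272 and 1102 RPKM in PBS, 1253, 1212, 1243 and 1181 in CpG-scrODN and 1216, 1236, 1218 and 1370.2 in CpG-STAT3dODN. PBS 3 lay above all CpG-scrODN libraries and within the CpG-STAT3dODN range, and the difference between CpG-STAT3dODN and PBS was 0.17 (SE 0.073, limma adjusted p = 0.472). Rps27a, made as a fusion with ubiquitin, was at 769 ± 59.8, 799 ± 7.84 and 817 ± 86.0 RPKM (SD, n = 4). Rps3, also known in DNA repair, was at 844 ± 48.7, 863 ± 19.1 and 880 ± 60.7 RPKM. Rpl13a, known for blocking translation of inflammatory mRNAs when released from the ribosome, was at 1123 ± 97.1, 1130 ± 73.6 and 1194 ± 41.1 RPKM. Rpsa, also known as a laminin receptor, was at 1093 ± 62.1, 1101 ± 60.3 and 1125 ± 89.1 RPKM, and Rps2, at the mRNA entry side, at 2076 ± 229, 2153 ± 292 and 2122 ± 228 RPKM. The differences of Rps27a, Rps3, Rpl13a, Rpsa and Rps2 between groups were at most 0.09 on the log2 scale.

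Parents and paralogs were compared by their share of the summed RPKM of each pair. Rpl22 and Rpl22l1, which are known to compensate for each other, share no 50-base window, and Rpl22 held 39.5% to 45.0% of their summed RPKM over the 12 libraries. Rpl22 was at 139 ± 5.97, 139 ± 3.29 and 141 ± 10.2 RPKM and Rpl22l1 at 193 ± 11.4, 195 ± 8.35 and 191 ± 28.9 RPKM (SD, n = 4) in PBS, CpG-scrODN and CpG-STAT3dODN. Rpl36a held 51.1% to 60.5% of its sum with Rpl36al, Rpl7 held 94.2% to 95.7% of its sum with Rpl7l1, and Rpl3 and Rpl39 held over 99.9% of theirs with Rpl3l and Rpl39l. Rps27 held 50.7% to 65.3% of its sum with Rps27l, a p53 target. Rps27l was among the more variable members, at 138, 157, 101 and 136 RPKM in PBS, 115, 143, 147 and 104 in CpG-scrODN and 136, 105, 141 and 167 in CpG-STAT3dODN, with overlapping groups.

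Copies with shared sequence behaved differently from one another. Rps27 and Rps27rt, the most alike, kept a fixed ratio: Rps27 was 35.0% to 35.8% of their sum in every library, while the sum itself ran from 398 RPKM (PBS 1) to 595 RPKM (CpG-STAT3dODN 4). Rps27rt contains 98.6% of the windows of Rps27, and 89.8% of its own windows occur in Rps27. Few windows tell the 2 apart, so the fixed ratio does not show how each gene varied. Rps19 was 71.1% to 72.2% of its sum with Rps19-ps3, and Rpl31 14.6% to 17.1% of its sum with Rpl31-ps12. Other shares were less steady. Rps15a was 9.21% to 12.5% of its sum with Rps15a-ps4 and 10.3% to 14.7% of its sum with Rps15a-ps6. Rpl37 was 5.67% to 10.2% of its sum with Rpl37rt, 81.2% of whose windows occur in Rpl37, and the share was lowest in CpG-scrODN 4. The widest range among these copies with shared windows was that of Rpl34 (chr3:130726827-130730398), 2.94% to 12.1% of its sum with Rpl34-ps1. Rpl34 was at 71.5, 80.8, 81.8 and 76.9 RPKM in PBS, 77.3, 80.3, 82.1 and 25.7 in CpG-scrODN and 92.4, 77.7, 81.0 and 75.6 in CpG-STAT3dODN. CpG-scrODN 4 was far below the 11 other libraries. In that library the pseudogene Rpl34-ps1, which contains 50.6% of the windows of Rpl34, was at 848 RPKM, its highest value of the 12 (620 to 846 RPKM in the others). Their sum, 874 RPKM in CpG-scrODN 4, lay inside the range of the other libraries (691 to 922 RPKM). The difference of Rpl34 between CpG-scrODN and PBS was -0.36 (SE 0.297, limma adjusted p = 0.589), and 0.04 without CpG-scrODN 4.

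**Figure D5:**
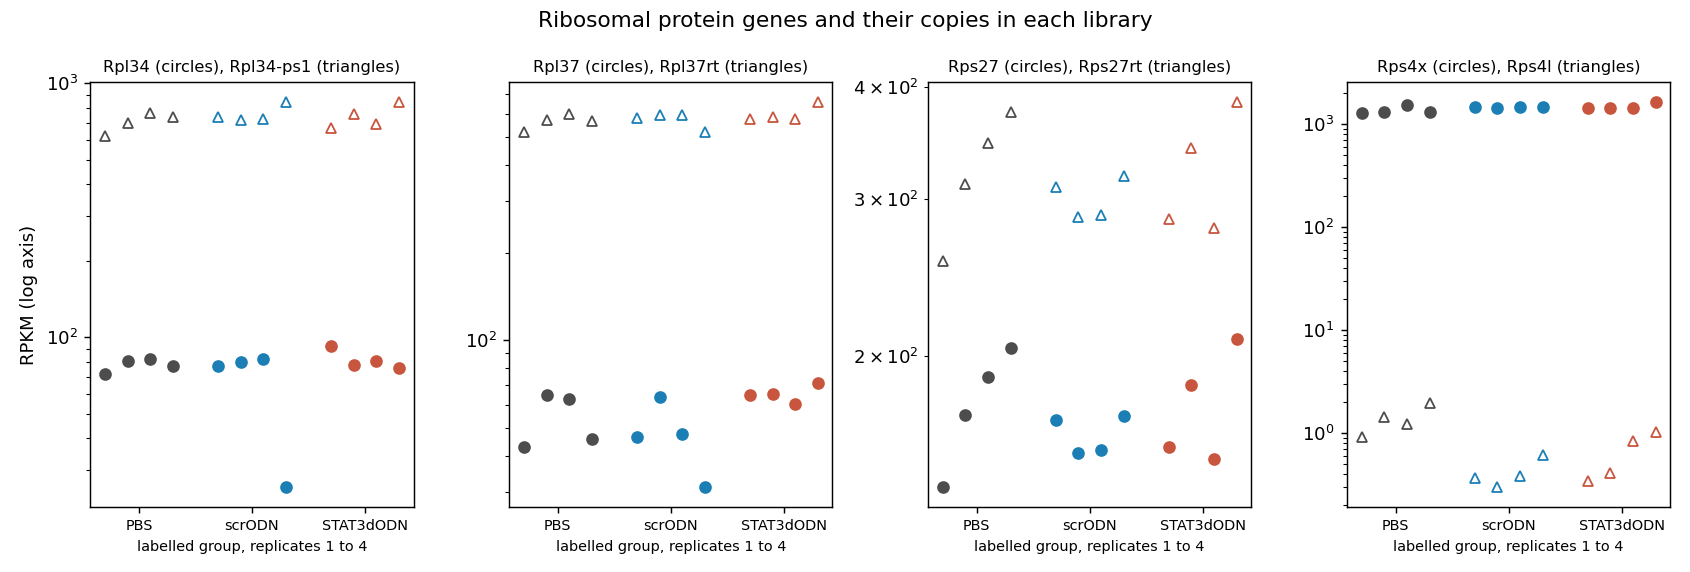
RPKM (log axes, 1 scale per panel) of 4 ribosomal protein genes (circles) and a copy or paralog of each (open triangles) in each library, by labelled group. Rps27 and Rps27rt, which share most of their sequence windows, move in parallel. Rpl34 drops to 25.7 RPKM in CpG-scrODN 4 while Rpl34-ps1 does not, and Rps4l lies at 0.299 to 1.95 RPKM far below Rps4x at 1269 to 1643 RPKM.

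The other parts of the translation machinery were compared by lists, none of which had a called gene in any of the 3 comparisons, beside the background of 4.15%, 1.86% and 0%. The medians below are given for CpG-scrODN against PBS, CpG-STAT3dODN against PBS and CpG-STAT3dODN against CpG-scrODN, beside -0.05, -0.01 and 0.03 over all genes. The 6 ribosomal protein pseudogenes in the table had medians of 0.05, 0.10 and 0.03, close to those of the members. Between 24.7% (Rps19-ps3) and 78.3% (Rpl14-ps1) of their 50-base windows occur in the parent member, so these values are not independent of the members.

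Of 18 other mRNAs known to carry a pyrimidine tract, 14 had a difference above 0 from PBS in CpG-scrODN and 12 in CpG-STAT3dODN, with medians of 0.07, 0.04 and -0.03. Eef1a1, the main elongation factor, was at 4600 ± 322, 5024 ± 163 and 4911 ± 188 RPKM, while Eef2, the translocation factor, was at 708 ± 40.0, 654 ± 45.9 and 663 ± 19.9 RPKM, and neither was called. The 41 translation initiation factors had medians of -0.03, -0.02 and 0.02. For ribosome production, the 17 genes of rDNA transcription had medians of 0.02, 0.01 and -0.03 and the 49 assembly factors -0.05, -0.04 and 0.01. The 77 mitochondrial ribosomal proteins had medians of -0.07, -0.01 and 0.06.

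Among 17 tested S6 kinases and growth regulators the medians were -0.07, -0.03 and 0.01. Myc, which drives transcription of ribosome genes, was at 78.5, 92.7, 66.9 and 55.7 RPKM in PBS, 63.1, 58.6, 61.2 and 48.7 in CpG-scrODN and 89.2, 73.7, 74.2 and 69.5 in CpG-STAT3dODN. The 4 CpG-STAT3dODN libraries lay above all CpG-scrODN libraries (0.40, SE 0.147, unadjusted p = 0.0191, limma adjusted p = 0.96), and PBS overlapped both.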

How the data were processed

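Expression was deposited per gene in 12 libraries as RPKM, per the file headers and labels, and was not rescaled. The submitters' processing notes name TopHat 1.3.1, Partek 6.12.0713 and, as genome build, mm10; the role of each, the counting rules, strand use and annotation were not given in the sources used here. Of the low values 62.5% to 67.9% came out as whole reads within 0.05, too few to recover counts, so no count test was run. In 27 rows the symbol had become a date.

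Values were analysed as log2(RPKM + 1). Genes at 1 RPKM or more in at least 4 of 12 libraries (10886) entered 1 limma 3.58.1 model (R 4.3.3, intensity trend) of the 3 labelled groups, two-sided, with Benjamini-Hochberg adjustment over all genes and a threshold of 0.05. Intervals are 95% intervals, unadjusted. Medians over members carry no test. Shared 50-base windows came from GENCODE transcripts, coordinates and promoters from RefSeq GRCm38.p6, the assembly that mm10 denotes. The code was tested on simulated data.

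The members and lists were chosen with earlier results of these data known. Named were called members, the 3 largest rises and falls per comparison, the 3 highest and lowest levels, and members set by role (40 genes, 37 tested); other genes in the text were named after their values were seen. Some genes are not reported here by name, in text or figures, but count in the totals. The alternatives were other pseudocounts, filters, scalings, quality weights, a replicate block, 2 groups only, and leaving out libraries. Leaving out PBS 1 with CpG-STAT3dODN 4, and CpG-scrODN 4 with CpG-STAT3dODN 4, was chosen after seeing the data.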

Additional observations from a re-analysis of the deposited data

Results flagged for a closer look

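Values were examined in 132 groups of 4 libraries for a library whose gap to the nearest other passed Dixon's 95% critical value, and 21 were found. For a single group, chance gives about 1 in 20. The groups repeat the same libraries over genes that moved together, so they are not independent and the count cannot be set against that rate. Of the 21, 10 were CpG-STAT3dODN 4 and 7 CpG-scrODN 4.

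CpG-STAT3dODN 4 stood above the rest of its group in Rplp1 (3030 RPKM), Rps18 (2648), Rps4x (1643), Rps6 (1370.2), Rps3 (971), Rps27a (944) and Rpl35a (809), in the median RPKM of the large subunit (857), and in the mean log2(RPKM + 1) of the small subunit (9.61) and of the large subunit (9.42). CpG-scrODN 4 stood below its group in Rplp1 (2263 RPKM), Rpl41 (1978), Rpl11 (847), Rpl35a (615) and Rpl34 (25.7) and in the mean log2 of the large subunit (9.10), and above it in Rpl39 (911 RPKM). In the group labelled PBS, replicate 1 was low in Rplp1 (2179 RPKM), replicate 3 high in Rpl10 (1636) and Rps4x (1535), and replicate 4 low in Rpl14 (488).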

How the results depend on the processing

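For the 37 tested named genes, 2838 of 2883 recomputed differences kept their direction and side of the threshold or moved by less than 1 SD, none with a called value reversed, and 307 uncalled ones changed sign. Members called in CpG-scrODN against PBS numbered 1, and 2 with size factors (computed with or without the members) or a common sum, 15 with library quality weights, 0 with quantile normalization or an RPKM floor of 5, and 0 to 3 with 1 library left out. In CpG-STAT3dODN against PBS they numbered 0, 10 with quality weights and 0 to 1 with 1 library left out. All genes called in CpG-scrODN against PBS numbered 452, and 163 with the floor, 1812 with quality weights, 686 without PBS 4 and CpG-STAT3dODN 4, and 279 to 560 with 1 library left out; quantile normalization called 75 higher and 318 lower, where the main values were 12 and 440. In CpG-STAT3dODN against PBS they numbered 202, and 76 with the floor, 78 with 2 groups only, 1248 with quality weights, 337 without PBS 4 and CpG-STAT3dODN 4, 392 without the 3 libraries numbered 4, and 121 to 218 with 1 left out. CpG-STAT3dODN against CpG-scrODN gave 0, 1 with 2 groups only and 607 with quality weights. The small subunit median of CpG-STAT3dODN against PBS was 0.10, and 0.013 without PBS 1 and CpG-STAT3dODN 4; with 1 library left out it was 0.04 to 0.15 (large subunit 0.06 to 0.14). The estimation of the quality weights stopped before it converged, so the values with them are of limited use. The cause of these changes was not tested, except that the floor tests fewer genes.

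Pairing of the libraries by replicate number was neither shown nor excluded. Deviations from the group means of same-numbered libraries correlated above 0.1 in 5 of 12 pairs. Among them were the 3 pairs numbered 4 (0.82 between PBS 4 and CpG-STAT3dODN 4, the libraries with low Fos, and 0.19 and 0.15 with CpG-scrODN 4). Only 3 of 12 libraries correlated best with their own number. With the replicate block 523, 213 and 0 genes and 1, 0 and 0 members were called in the 3 comparisons.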
